A study of Drosophila melanogaster with 16 samples.

Results

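The interaction of genotype and fasting was measured in whole *Drosophila melanogaster* larvae, and all 16 of the 16 RNA-seq libraries of the series enter it. For each of the 10459 genes in the table it is the mutant minus control difference in fasted larvae minus the same difference in fed larvae, which is also the fasting response of mutants minus the fasting response of controls. A value above 0 thus means that mutants stood higher, relative to controls, in fasted than in fed larvae. The question was for which of these genes mutants and controls stood further apart on food, and for which further apart when fasted. Fed larvae were sampled at the same end point as fasted larvae, so they are not a state from before the fast.

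The groups were fasted mutants (erk7 starved), fasted controls (control starved), fed mutants (erk7 fed) and fed controls (control fed), with 4 libraries each. ERK7 mutants came from 1 CRISPR line with a short frameshifting deletion in *Erk7*, and controls from a line of the same screen without a mutation in the gene. The mutant effect therefore rests on 1 allele, and both lines had been backcrossed into the same w1118 background. Eggs were laid over 3 h, and the hatched larvae were put on standard food 24 h later. After another 48 h the larvae, labelled as 3rd instar, went either onto PBS with 0.5% agarose, without nutrients, or onto fresh food for 6 h. Male larvae were used. These times are those of the sample labels, and the study's methods give a later larval age at transfer. How many larvae went into a library is not given in the sources used here. Nothing says that replicates came from separate cultures, so p-values measure the spread between these libraries, which may be technical.

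ERK7 (*Erk7*, the fly counterpart of human MAPK15) is an atypical MAP kinase, and the study addresses its part in fat storage and growth. Larvae on food run ribosome production and protein synthesis at a high rate under insulin and TOR signalling. When food is withdrawn these programmes are turned down, the transcription factor FOXO enters nuclei, and fat body cells release stored lipid and start autophagy. An interaction can thus come from the fed end of this response, from the fasted end, or from both.

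Levels are in RPM, the usual scaling of reads to a common library size, in which 1 read was worth 0.0472 to 0.0642 RPM, with 16482553 to 20601418 reads per library on the listed genes, and differences are on the log2(RPM + 1) scale, which understates the change of low genes. A call is an adjusted p under 0.05 in limma over all 10459 genes. The first 2 components of the 16 libraries held 44.4% and 36.2% of the variance. Fasted controls replicate 1 stood apart from its group on the second component, at -2.46 against 16.7 to 44.1. Fed controls replicate 4 listed 213 genes at 0 reads, against 26 to 70 in the other fed libraries. Values without both libraries are given where they matter. *Erk7* itself had 5.14 to 8.03 RPM in fasted mutants and 1.83 to 9.73 RPM in fasted controls, and 5.58 to 10.2 RPM in fed mutants and 0.634 to 3.05 RPM in fed controls. Its interaction was not called (-1.13 ± 0.52 SE, adjusted p = 0.111), and since the deletion is short its RNA is still counted and checks no label.

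The interaction was called for 3338 genes (31.9% of those tested), 1903 above 0 (18.2%) and 1435 below 0 (13.7%), with a median over all genes of -0.03. These shares are the background for the counts of gene lists below. The larger side was settled by a second test. The squared genotype difference in fasted larvae minus that in fed larvae is the product of the interaction and the sum of both differences, so a called interaction with a called mean genotype difference places the larger difference on 1 diet. On this test the difference was larger in fasted larvae for 242 genes above 0 (2.31%) and 383 below 0 (3.66%). It was larger in fed larvae for 974 genes above 0 (9.31%) and 492 below 0 (4.7%). For 687 genes above 0 (6.57%) and 560 below 0 (5.35%) neither diet was called larger, and in 418 of these 1247 genes the genotype difference was called on both diets with opposite signs.

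**Figure D1:**
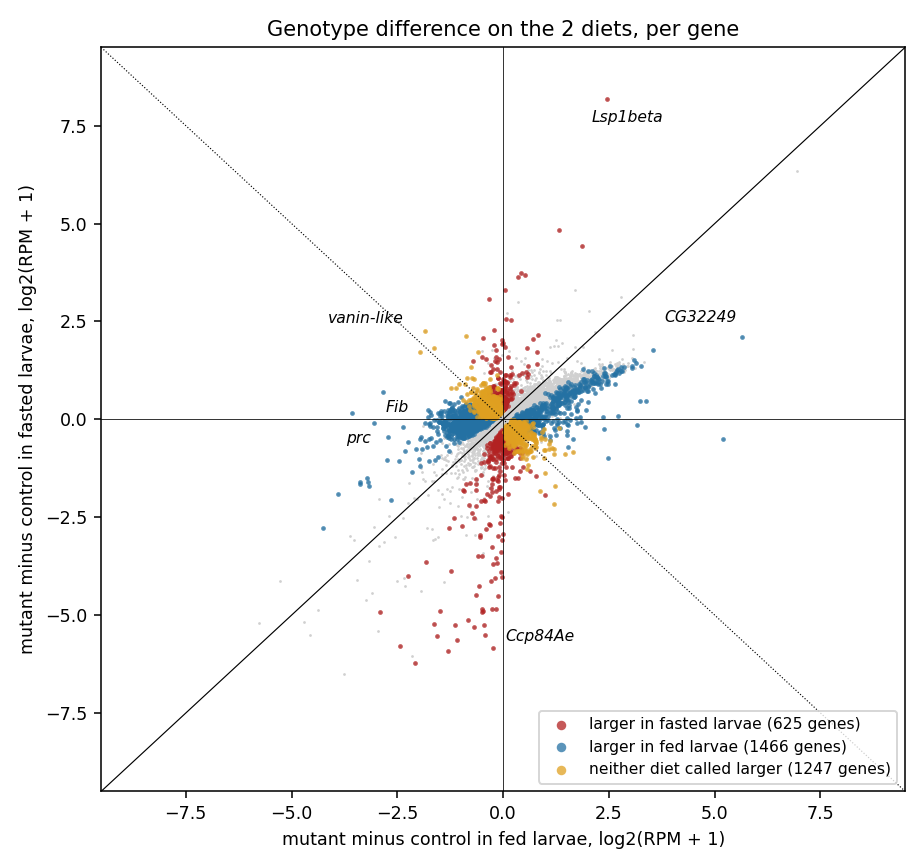
The mutant minus control difference of each gene in fasted larvae (y axis) against that in fed larvae (x axis), both on the log2(RPM + 1) scale. Grey points are genes without a called interaction, coloured points the 3338 called genes by the diet with the larger difference. The 1466 genes that are larger in fed larvae spread along the x axis, and the 625 genes that are larger in fasted larvae along the y axis. The 1247 others lie near the dotted line, where both differences have the same size and opposite signs. This follows from how that class is defined, by a mean genotype difference that was not called.

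Medians show what each class did. Genes above 0 and larger in fed larvae had a median difference of -0.06 in fasted larvae and -0.72 in fed larvae, and 761 of these 974 genes were called different in fed larvae alone. The others were called on both diets, 164 with the same sign and 49 with opposite signs. Genes below 0 and larger in fed larvae had 0.19 and 1.04. Genes above 0 and larger in fasted larvae had 0.54 in fasted larvae and -0.01 in fed larvae, and those below 0 had -0.69 and -0.05. Where neither diet was called larger, the medians were 0.26 and -0.27 above 0, and -0.28 and 0.27 below 0.

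The same interaction was read as a change of the fasting response. The response was smaller in mutants for 2406 genes (23%) and larger in mutants for 380 genes (3.63%), and the rest of the 3338 had no called mean response. Among genes above 0 the fasting response was called in controls alone for 642 and in mutants alone for 179. Among genes below 0 these numbers were 658 and 166. These comparisons share the control libraries on which the response is measured, and the fasting response was called higher for 23.7% of all genes in mutants and 37.5% in controls, and lower for 25% in mutants and 32.2% in controls.

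The RNA level of testis genes differed by genotype, with groups apart in fed larvae and overlapping in fasted larvae. The mean log2 level of 27 testis genes was 2.83 to 3.26 in fasted mutants against 1.63 to 2.88 in fasted controls, and 2.89 to 3.24 in fed mutants against 1.07 to 2.00 in fed controls. With this level as a covariate the interaction was called for 1933 genes above 0 and 1506 below 0, but far fewer could be placed on a diet: 35 above 0 and 51 below 0 were larger in fasted larvae, 426 and 126 in fed larvae, and 1472 and 1329 were placed on neither. Because the level differed by genotype, the covariate takes up part of the mean genotype difference on which placement rests. The drop in placed genes is thus partly built in, here and in the lists below. It does not show whether testis content bears on the placement. In whole larvae, fewer cells of a type and less RNA per cell cannot be told apart. The summed level of 17 sarcomere genes, 55719 to 66576 RPM in fasted mutants and 57900 to 68712 RPM in fasted controls, and 49695 to 69985 RPM in fed mutants and 56400 to 60611 RPM in fed controls, had groups that overlap on each diet.

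Ribosome production genes differed in fed larvae. All 20 measured ribosome biogenesis genes, whose products process and assemble ribosomal RNA, were called above 0 and larger in fed larvae, with a median difference of -0.11 in fasted larvae and -1.43 in fed larvae. Their summed level was 532 to 640 RPM in fasted mutants and 601 to 648 RPM in fasted controls, and 628 to 812 RPM in fed mutants and 1996 to 2263 RPM in fed controls. Fed mutants thus stood close to both fasted groups, and fed controls alone were high. With the testis level as a covariate 19 of the 20 stayed larger in fed larvae.

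*Fib* (FBgn0003062, 2R:23072909-23074725) encodes fibrillarin, the nucleolar RNA methyltransferase. It had 54.2, 50.2, 61.4 and 50.8 RPM in fasted mutants and 55.4, 62.5, 57.6 and 57.2 RPM in fasted controls. On food it had 57.8, 50.2, 51.5 and 43.2 RPM in mutants and 175, 203, 183 and 181 RPM in controls. The fed groups did not overlap and the fasted groups did, giving differences of -0.10 and -1.86 in fasted and fed larvae and an interaction of 1.75 ± 0.12 (SE, adjusted p = 1.95e-06 in limma). *Nop56*, another box C/D particle protein, averaged 51.2 and 54.4 RPM in fasted mutants and fasted controls, and 78.0 and 259 RPM in fed mutants and fed controls. *hoip*, which binds the same RNA class, averaged 18.9 and 17.3 RPM in the fasted groups and 39.1 and 129 RPM in the fed groups, in the same order of mutants and controls, with an interaction of 1.82. *nclb*, the fly PWP1 gene on which other results of the study rest, had 29.7, 39.3, 43.6 and 33.6 RPM in fasted mutants and 38.4, 41.1, 36.1 and 42.2 RPM in fasted controls. In fed mutants it had 47.5, 38.7, 45.3 and 36.1 RPM, and in fed controls 113, 125, 110 and 108 RPM. Only the fed groups were apart, with an interaction of 1.31 ± 0.16 (adjusted p = 4.06e-05).

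RNA polymerase I and III subunits and factors, which make ribosomal RNA and tRNA, followed the same form in 7 of 8 genes, all larger in fed larvae. *RpI1*, the largest subunit of polymerase I, averaged 52.0 and 60.7 RPM in fasted mutants and controls, against 54.7 and 147 RPM in fed mutants and controls. With the testis covariate 4 genes of the list were larger in fed larvae and 3 in neither. Of 66 mitochondrial ribosomal protein genes 59 were called, all above 0, and 58 of them were larger in fed larvae, with medians of -0.12 in fasted and -0.81 in fed larvae. *mRpL19*, for example, averaged 32.2 and 32.9 RPM in the fasted groups and 30.4 and 64.8 RPM in the fed groups, mutants before controls. With the testis covariate 37 mitochondrial ribosomal protein genes were larger in fed larvae and 20 in neither.

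Cytosolic ribosomal protein genes shared the fed deficit but not the fasting response. Of 82 genes 47 were called above 0 and 1 below 0, and the median difference was -0.10 in fasted and -0.47 in fed larvae. Their median response to fasting was 0.38 in mutants and 0.01 in controls, so 35 of the 48 had a larger response in mutants and 1 a smaller one. The 47 calls above 0 became 33 without fed controls replicate 4 and fasted controls replicate 1 together. They numbered 33 to 57 when 1 library was left out, and 31 under quantile normalization. *sta*, a small-subunit protein gene, averaged 1409 and 1607 RPM in fasted mutants and controls, against 939 and 1661 RPM in fed mutants and controls. In this list 18 genes averaged under 20 RPM, *RpL32* among them with 0.605 to 2.05 RPM, while the median gene had 607 RPM. How their reads were assigned was not tested, so the levels of these 18 genes are uncertain. Among the other 64 genes 42 were called above 0. The 1 gene below 0 was *RpL10Aa*, whose call was lost in 16 of 28 alternatives. It is among the low genes and averaged 1.26 and 0.536 RPM in fasted mutants and controls, and 1.78 and 0.0667 RPM in fed mutants and controls.

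Translation factors were called above 0 in 30 of 51 genes and aminoacyl-tRNA synthetases in 24 of 28, none below 0, with 23 and 17 of them larger in fed larvae. *Aats-lys*, which charges lysine tRNA, averaged 108 and 112 RPM in the fasted groups and 108 and 196 RPM in the fed groups, mutants first. *MetRS*, for methionine, moved on both diets: 71.1 and 50.9 RPM in fasted mutants and controls, and 94.7 and 140 RPM in fed mutants and controls. With the testis covariate 4 translation factors, 3 synthetases and 4 cytosolic ribosomal protein genes were larger in fed larvae.

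**Figure D2:**
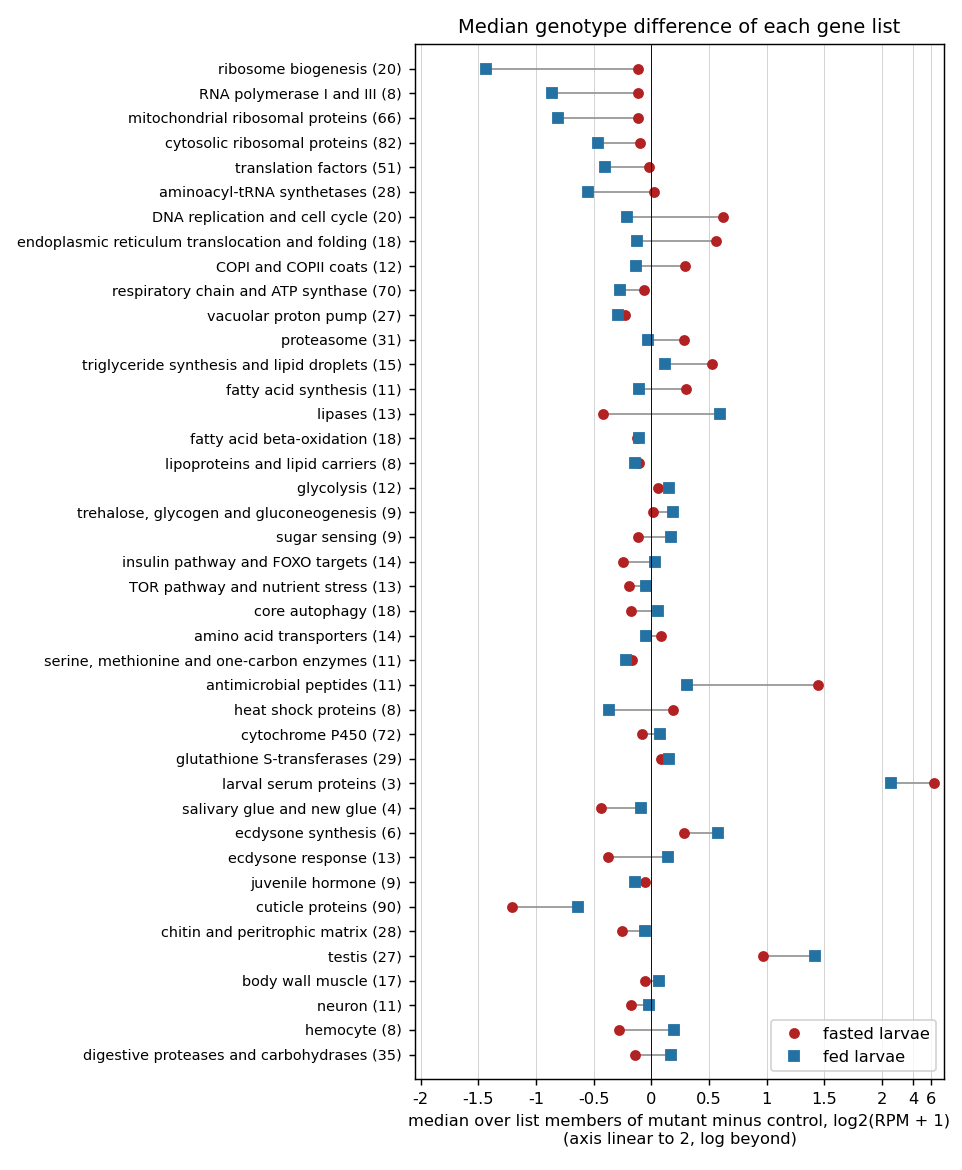
Median mutant minus control difference over the members of each of 41 gene lists, in fasted larvae (circles) and in fed larvae (squares), on the log2(RPM + 1) scale (linear to 2 and logarithmic beyond), with the number of genes measured in brackets. Ribosome biogenesis lies at -0.11 and -1.43 in fasted and fed larvae, endoplasmic reticulum genes at 0.56 and -0.13, and lipases at -0.42 and 0.59.

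Of the genes named above 0 and larger in fed larvae, *prc* had the largest interaction. *prc* (FBgn0028573, 3L:11958872-11966131), which encodes the collagen-like protein pericardin, had 305, 286, 308 and 332 RPM in fasted mutants and 392, 456, 455 and 396 RPM in fasted controls. It had 83.3, 72.2, 91.7 and 66.7 RPM in fed mutants and 507, 490, 507 and 565 RPM in fed controls. Groups were apart on both diets, but the difference was -0.46 in fasted and -2.71 in fed larvae, and the RNA rose upon fasting in mutants by 1.97 on the log2 scale. Among 8 genes used to mark hemocytes, the blood cells of the fly, 2 were called above 0 and 2 below 0 (50%, against 31.9% of all genes). The collagen IV gene *vkg* averaged 1493 and 1828 RPM in fasted mutants and controls, and 1085 and 2649 RPM in fed mutants and controls. *Cg25C*, the other collagen IV gene, averaged 2142 and 2744 RPM, and 1550 and 3783 RPM, in the same order, and both were larger in fed larvae. *eater*, a phagocytic receptor of hemocytes, was called in the other direction (-0.96), with 9.67 and 10.8 RPM in fasted mutants and controls and 12.6 and 6.78 RPM in fed mutants and controls.

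Of 8 heat shock protein genes 4 were called above 0 (50%, against 18.2% of all genes), 3 of them larger in fed larvae. Among these *Hsc70-4* is listed at means of 1.48 to 3.51 RPM, for which the cause was not tested, and its level is uncertain. The mitochondrial chaperone gene *Hsp60* averaged 303 and 324 RPM in fasted mutants and controls, against 546 and 1364 RPM in fed mutants and controls, and *Hsc70-5* 245 and 273 RPM against 392 and 933 RPM. The cytosolic chaperone gene *Hsp83* differed on both diets in opposite directions. It had 748, 1154, 1153 and 760 RPM in fasted mutants and 531, 276, 289 and 438 RPM in fasted controls, while fed mutants had 1477 to 1766 RPM and fed controls 2472 to 2924 RPM, with an interaction of 2.09 ± 0.28 (adjusted p = 8.57e-05). Of 70 respiratory chain and ATP synthase genes only 7 were called (10%), 6 above and 1 below 0. The number above 0 was 2 to 12 when 1 library was left out, 12 without fasted controls replicate 3 and 2 without, for example, fed controls replicate 3, and it was 1 with the testis covariate. The 1 below 0, *ND-49L*, whose call was lost in 10 of 28 alternatives, averaged 8.00 and 3.55 RPM in the fasted groups and 7.65 and 0.850 RPM in the fed groups, mutants first. Of 27 vacuolar proton pump genes *Vha100-5* alone was called (-0.37).

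Some genes were higher in fed mutants and less far apart upon fasting. *CG32249* (FBgn0052249, 3L:4470001-4471012) had 324, 205, 161 and 196 RPM in fasted mutants and 57.9, 34.5, 57.2 and 51.3 RPM in fasted controls. In fed larvae it had 279, 449, 225 and 432 RPM in mutants and 10.2, 3.83, 5.07 and 4.91 RPM in controls. It was higher in every mutant library of each diet, by 5.65 in fed larvae, with an interaction of -3.55 ± 0.41 (adjusted p = 3.09e-05). The cuticle protein gene *Cpr49Ac* averaged 57.5 and 38.1 RPM in fasted mutants and controls, with overlap, and 49.0 and 3.63 RPM in fed mutants and controls, without overlap. *CG18563* averaged 62.7 and 58.4 RPM in the fasted groups and 18.5 and 2.78 RPM in the fed groups, mutants first. *CG18179* averaged 853 and 1048 RPM in fasted mutants and controls and 712 and 184 RPM in fed mutants and controls, where fed controls replicate 4 was lowest with 24.6 RPM. *CG14374* ran the other way, with 44.2 and 136 RPM in fasted mutants and controls and 12.6 and 140 RPM in fed mutants and controls. So did *Obp83cd*, an odorant-binding protein gene, with 25.8 and 29.9 RPM in the fasted groups and 11.8 and 58.6 RPM in the fed groups, mutants first.

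*FASN3*, a fatty acid synthase gene named here because its values stood out, was confined to 1 group. It had 66.5 to 168 RPM in the 4 fed mutant libraries and 1.56 to 4.99 RPM in the other 12, with an interaction of -5.70 ± 0.37 (adjusted p = 1.31e-06). It lies below the median level of all genes, and so outside the rule by which most other genes were named.

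Secretory pathway genes that could be placed on a diet were larger in fasted larvae, but many called genes were placed on neither. Of 18 endoplasmic reticulum genes, for import, folding and quality control of secreted proteins, 11 were called above 0 and none below 0. Of these 7 were larger in fasted larvae and none in fed larvae, and 4 were placed on neither diet. Their summed level was 4502 to 6060 RPM in fasted mutants and 2588 to 3692 RPM in fasted controls, while fed mutants (10666 to 12743 RPM) and fed controls (10622 to 12186 RPM) overlapped. *Gp93*, a chaperone of the Hsp90 family in the endoplasmic reticulum, had 679, 491, 695 and 855 RPM in fasted mutants and 355, 205, 182 and 177 RPM in fasted controls. Its fed values were 904 to 1127 RPM in mutants and 970 to 1227 RPM in controls. All fasted mutant libraries were above all fasted control libraries, and fed libraries overlapped, with differences of 1.59 and -0.17. *Hsc70-3*, the BiP chaperone, and *Cnx99A*, a calnexin, gave 1.53 and 1.22 in fasted larvae and -0.11 and -0.30 in fed larvae, where neither was called. COPI and COPII coat genes were called above 0 in 9 of 12, with medians of 0.29 in fasted and -0.13 in fed larvae. Of these 2 were larger in fasted larvae and 7 were placed on neither diet.

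Proteasome subunits were called above 0 in 18 of 31 genes, 13 of them larger in fasted larvae and none in fed larvae. The changes were small and in 1 direction: the summed level was 3191 to 3426 RPM in fasted mutants and 2660 to 2907 RPM in fasted controls, without overlap, and 3785 to 4199 RPM in fed mutants and 3780 to 4207 RPM in fed controls. *Rpn2*, a subunit of the regulatory particle, averaged 142 and 108 RPM in fasted mutants and controls and 163 and 171 RPM in fed mutants and controls (interaction 0.45). With the testis covariate 1 endoplasmic reticulum gene and no proteasome gene was placed in fasted larvae, while 13 and 20 were called above 0. Without fasted controls replicate 1 and fed controls replicate 4 the placed numbers were 10 and 14.

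Of 15 triglyceride synthesis and lipid droplet genes 5 were called above 0, each larger in fasted larvae, and 3 below 0. That is 53.3% in all, against 31.9% of all genes (18.2% above and 13.7% below 0). The number above 0 was 4 to 8 when 1 library was left out. Their summed level overlapped in fasted larvae, with 1871 to 3256 RPM in mutants and 1792 to 2206 RPM in controls. *Seipin* (FBgn0040336, X:2619799-2622140), which shapes lipid droplets at the endoplasmic reticulum, had 78.9, 246, 149 and 120 RPM in fasted mutants and 31.9, 29.4, 34.3 and 30.9 RPM in fasted controls. On food it had 45.9, 48.1, 48.4 and 43.3 RPM in mutants and 64.6, 73.5, 61.4 and 62.5 RPM in controls. It rose upon fasting in mutants (1.54) and fell in controls (-1.03), and the interaction was 2.57 ± 0.32 (adjusted p = 5.04e-05). *Lsd-1*, the droplet coat protein perilipin 1, had 170, 457, 367 and 318 RPM in fasted mutants and 83.6, 46.6, 62.6 and 65.5 RPM in fasted controls. Its fed values, 211 to 250 RPM in mutants and 254 to 288 RPM in controls, were apart by far less (2.27 in fasted larvae, and -0.22, not called, in fed larvae). The acyltransferase genes *fu12* and *CG4729* followed with interactions of 0.86 and 0.84. The call of *fu12* was lost in 19 of the 29 alternatives in which it was tested. Below 0 were *mdy* (-0.39) and *Lpin* (-0.61), which encode a diacylglycerol acyltransferase and lipin, and *CG3812* (-0.78), all placed on neither diet. With the testis covariate 4 genes of the list were called above 0 and none was placed in fasted larvae.

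Of 11 fatty acid synthesis genes 3 were called (27.3%, against 31.9% of all genes), all above 0. The list does not hold *FASN3*, the fatty acid synthase gene described above, which was called below 0 and was high in fed mutants alone. *Pgd*, a pentose phosphate enzyme that supplies NADPH, averaged 165 and 68.2 RPM in fasted mutants and controls and 542 and 659 RPM in fed mutants and controls, and was larger in fasted larvae. *sug*, the sugar-responsive transcription factor sugarbabe, had 5.61, 12.3, 21.3 and 13.9 RPM in fasted mutants and 3.28, 2.37, 2.30 and 2.75 RPM in fasted controls. Fed levels were 17.8 to 24.5 RPM in mutants and 18 to 22.2 RPM in controls. Fasted groups did not overlap and fed groups did, so that the difference was 1.84 in fasted and 0.05 in fed larvae (interaction 1.79 ± 0.36, adjusted p = 0.00186). *sug* shares exon bases with 1 other gene in the annotation used.

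**Figure D3:**
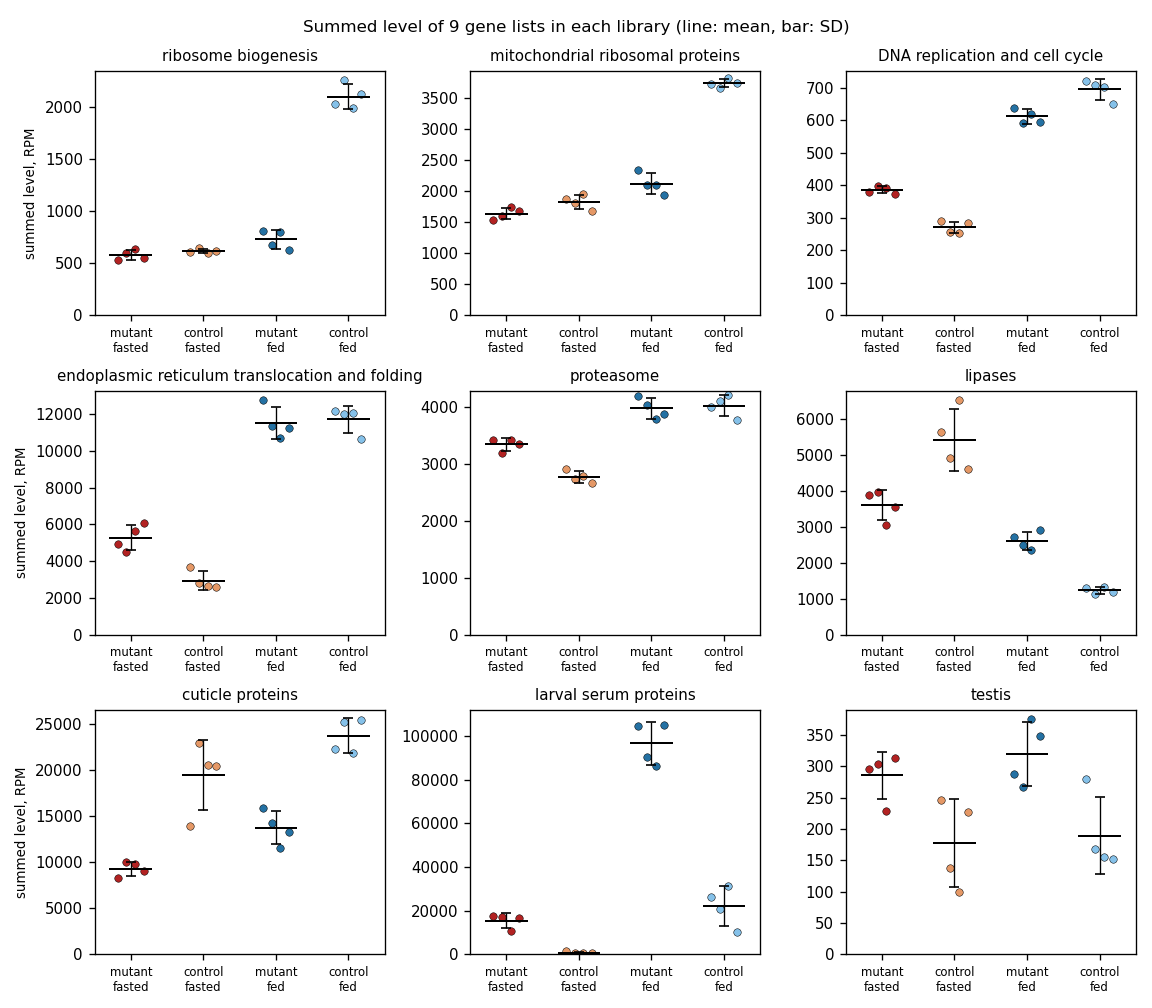
Summed level in RPM of 9 gene lists in each of the 16 libraries, with fasted mutants, fasted controls, fed mutants and fed controls from left to right, lines for group means and bars for the SD of 4 libraries. Ribosome biogenesis is high in fed controls alone (1996 to 2263 RPM), endoplasmic reticulum genes are apart without overlap in fasted larvae and overlap in fed larvae, and lipases lie higher in fed mutants and lower in fasted mutants than in the controls of the same diet.

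Lipases crossed. Of 13 measured lipase genes 7 were called, all below 0, and the median difference was -0.42 in fasted and 0.59 in fed larvae. Their summed level was 3040 to 3952 RPM in fasted mutants and 4594 to 6504 RPM in fasted controls, and 2338 to 2906 RPM in fed mutants and 1128 to 1322 RPM in fed controls. On neither diet did the groups overlap, and mutants were the lower group when fasted and the higher when fed. *bmm*, the lipid droplet lipase brummer, had 112, 190, 113 and 105 RPM in fasted mutants and 242, 307, 309 and 289 RPM in fasted controls. It had 43.8, 50.6, 30.6 and 46.0 RPM in fed mutants and 27.8, 28, 23.3 and 31.5 RPM in fed controls, with an interaction of -1.77 ± 0.26 (adjusted p = 0.000163).

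The 3 neighbouring lipase genes *CG6271*, *CG6277* and *CG6283* were among the 7. *CG6277* (FBgn0039475, 3R:27022071-27023217) had 243, 318, 233 and 310 RPM in fasted mutants and 598, 416, 693 and 491 RPM in fasted controls. In fed mutants it had 130, 67.9, 132 and 152 RPM and in fed controls 47.4, 14.7, 9.95 and 21.7 RPM, so fasting raised it by 1.23 in mutants and by 4.70 in controls. *CG6271* averaged 496 and 860 RPM in fasted mutants and controls and 17.0 and 4.52 RPM in fed mutants and controls, and *CG6283* 727 and 1260 RPM against 555 and 287 RPM. These genes are related in sequence, so reads may be divided between them in counting.

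*Ilp6* crossed in the same way. *Ilp6* (FBgn0044047, X:2331493-2334658), an insulin-like peptide of the fat body that is induced by FOXO, had 36.3, 33.1, 30.4 and 37.1 RPM in fasted mutants and 43.3, 62.1, 66.1 and 67.7 RPM in fasted controls. Its fed levels were 9.49, 8.74, 9.20 and 14.8 RPM in mutants and 4.27, 3.83, 3.79 and 3.96 RPM in controls. Groups were apart on both diets, mutants lower when fasted (-0.77) and higher when fed (1.19), with an interaction of -1.96 ± 0.22 (adjusted p = 2.01e-05). *Thor*, the translation inhibitor 4E-BP and a FOXO target, averaged 390 and 500 RPM in fasted mutants and controls, a difference that was not called, and 56.0 and 18.3 RPM in fed mutants and controls. *InR*, the insulin receptor gene, averaged 79.6 and 145 RPM in the fasted groups and 33.0 and 25.1 RPM in the fed groups, mutants first, and was larger in fasted larvae. Of 14 genes in this list 6 were called below 0 and 1 above 0 (50% in all, against 31.9% of all genes).

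Of 13 TOR pathway and nutrient stress genes 4 were called below 0 and 3 above 0 (53.8% in all, against 31.9% of all genes). *REPTOR*, a transcription factor active when TOR is low, averaged 37.9 and 62.8 RPM in fasted mutants and controls and 34.2 and 24.0 RPM in fed mutants and controls (interaction -1.21). *chrb* and *scyl*, inhibitors of TOR signalling, had interactions of -0.79 and -0.52, and *SNF4Agamma*, a subunit of AMP-activated kinase, -0.57. Above 0 and larger in fed larvae were *Tor* itself (0.43), the TOR inhibitor gene *Tsc1* (0.32) and *S6k*, a kinase downstream of TOR (0.26). Core autophagy genes were called below 0 in 9 of 18 (50%, against 13.7% of all genes) and above 0 in none, with medians of -0.18 in fasted and 0.06 in fed larvae. *Atg18b* averaged 24.9 and 46.5 RPM in fasted mutants and controls and 16.0 and 10.5 RPM in fed mutants and controls. *Atg1*, the kinase that starts autophagy, differed in fasted larvae (-0.77) and was not called in fed larvae (-0.12).

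Of 20 DNA replication and cell cycle genes 12 were called above 0 and none below 0. In fasted larvae 18 were called higher in mutants and none lower, while in fed larvae 7 were called higher and 10 lower. Their summed level was 374 to 399 RPM in fasted mutants and 254 to 288 RPM in fasted controls, against 591 to 639 RPM in fed mutants and 649 to 721 RPM in fed controls. *RnrL*, the large subunit of ribonucleotide reductase, averaged 25 and 14.8 RPM in the fasted groups and 55.5 and 78.8 RPM in the fed groups, mutants first. *PCNA*, the replication clamp, averaged 24.7 and 15.5 RPM, and 51.3 and 71.8 RPM, in the same order. Both were higher in fasted mutants and lower in fed mutants than in controls of the same diet, with each difference called.

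Where neither diet was called larger, the largest interaction was that of *vanin-like* (FBgn0040069, X:6200188-6202559), which encodes a pantetheinase-like enzyme. It had 110, 209, 203 and 162 RPM in fasted mutants and 57.7, 25.2, 30.2 and 29.6 RPM in fasted controls. It had 65.4, 82.7, 97.5 and 78.6 RPM in fed mutants and 272, 312, 290 and 284 RPM in fed controls. Fasting raised it in mutants by 1.04 and lowered it in controls by 3.06, and the interaction was 4.10 ± 0.33 (adjusted p = 2.32e-06). *Cyp4d8*, a cytochrome P450 gene, did the opposite, with 34.5 to 47.3 RPM in fasted mutants and 55.7 to 86.4 RPM in fasted controls, and 77.5 to 90.9 RPM in fed mutants and 27.6 to 53.3 RPM in fed controls.

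A response that turned round was called for 127 genes in all, 62 of which rose in mutants and fell in controls and 65 of which did the reverse. Besides *vanin-like*, *Seipin* and *Cyp4d8*, 3 further genes chosen after their values were seen show it. *scf*, a calcium-binding protein gene of the secretory pathway, had 124 to 176 RPM in fasted mutants and 71.1 to 118 RPM in fasted controls, and 55.5 to 78.5 RPM in fed mutants and 146 to 160 RPM in fed controls. *Tep4*, a thioester protein gene of immunity, had 211 to 464 RPM in fasted mutants and 68.8 to 108 RPM in fasted controls, while fed mutants (150 to 231 RPM) and fed controls (173 to 243 RPM) overlapped. *Hex-C*, a hexokinase gene, rose by 0.60 upon fasting in mutants and fell by 1.06 in controls.

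**Figure D4:**
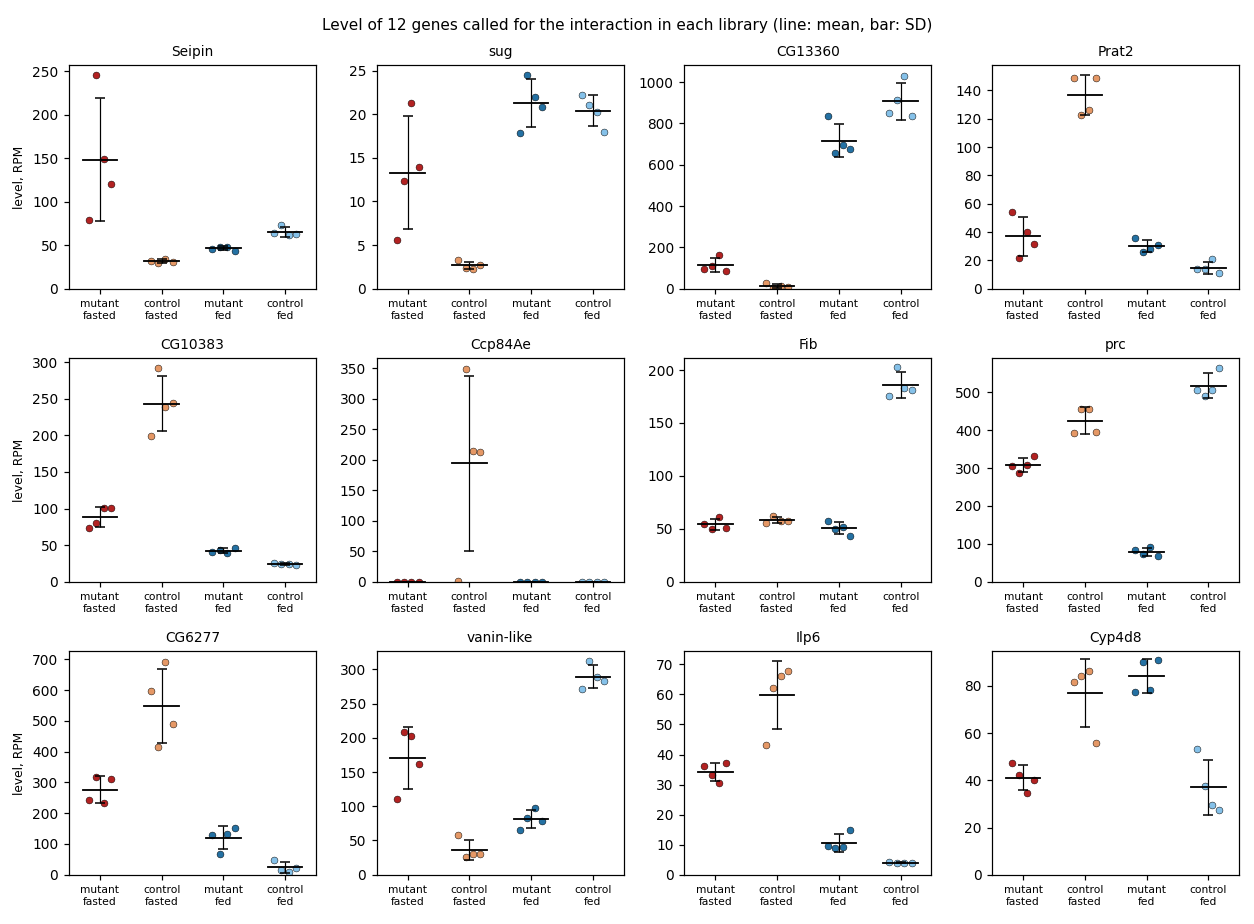
Level in RPM of 12 genes with a called interaction in each library, with fasted mutants, fasted controls, fed mutants and fed controls from left to right, lines for group means and bars for the SD of 4 libraries (cut at 0). *Seipin*, *sug* and *CG13360* differ mainly in fasted larvae, and *Fib* and *prc* mainly in fed larvae. Fed libraries of *Seipin* are also apart, with mutants lower. *vanin-like*, *Ilp6* and *Cyp4d8* differ on both diets with opposite signs. *Ccp84Ae* is high in 3 of 4 fasted control libraries.

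Detoxification genes were mixed. Of 72 cytochrome P450 genes 7 were called above 0 and 14 below 0 (29.2% in all, against 31.9% of all genes), and 10 of those below 0 were larger in fed larvae. *Cyp4d14* had 102 to 263 RPM in fasted mutants and a mean of 25 RPM in fasted controls, without overlap, and 87.0 to 128 RPM in fed mutants and 59.8 to 158 RPM in fed controls, so the groups were apart in fasted larvae alone. Of 29 glutathione S-transferase genes 6 were called above and 6 below 0 (41.4% in all). *GstD4* averaged 25.1 and 5.28 RPM in fasted mutants and controls and 73.8 and 43.7 RPM in fed mutants and controls, and *GstT4* 637 and 978 RPM against 117 and 67.9 RPM.

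*Drs*, the antifungal peptide drosomycin, was read almost solely in fasted larvae. It had 846, 869, 907 and 455 RPM in fasted mutants and 180, 229, 40.5 and 155 RPM in fasted controls, without overlap. It had 0.354 to 0.414 RPM in fed mutants and 0.0528 to 0.517 RPM in fed controls. The interaction was 2.35 ± 0.56 (adjusted p = 0.00572), and *Drs* was the 1 gene called among 11 antimicrobial peptide genes.

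Other large fasted differences above 0 fell on genes of less known function. *CG13360* (FBgn0025620, X:787855-790089) had 93.5, 110, 162 and 87.6 RPM in fasted mutants and 26.7, 5.90, 13.1 and 10.4 RPM in fasted controls. It had 657 to 836 RPM in fed mutants and 835 to 1030 RPM in fed controls, which overlapped. *CG10182* averaged 256 and 21.1 RPM in fasted mutants and controls and 167 and 126 RPM in fed mutants and controls. Below 0, *Prat2*, an enzyme gene of purine synthesis, had 54.4, 21.7, 39.9 and 31.9 RPM in fasted mutants and 149, 123, 126 and 149 RPM in fasted controls. In fed larvae it had 25.7 to 35.6 RPM in mutants and 10.8 to 20.9 RPM in controls, so *Prat2* rose upon fasting by 3.15 in controls and was at 0.22, not called, in mutants. *CG10383* (FBgn0032699, 2L:18690904-18695602) had 73.0 to 101 RPM in fasted mutants and 199 to 292 RPM in fasted controls, and 39.3 to 46.2 RPM in fed mutants and 22.9 to 26.2 RPM in fed controls, with an interaction of -2.22 ± 0.17 (adjusted p = 2.32e-06).

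Larval serum protein genes, fat body storage proteins made late in the last instar, had the largest interaction among the named genes. *Lsp1beta* had 4482, 3893, 1669 and 3475 RPM in fasted mutants and 139, 3.43, 6.62 and 1.99 RPM in fasted controls. It had 28998 to 37104 RPM in fed mutants and 2290 to 11684 RPM in fed controls. *Lsp1gamma* averaged 11884 and 627 RPM in fasted mutants and controls and 51301 and 14920 RPM in fed mutants and controls. Mutants were higher in every library on each diet, and the interactions of 5.72 and 2.57 come with a fall upon fasting in both genotypes that was steeper in controls.

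Cuticle protein genes hung on which fasted control libraries were used. Of 90 genes 29 were called below 0, 19 of them larger in fasted larvae, and 10 above 0. *Ccp84Ae* (FBgn0004779, 3R:6690887-6691758) had 0.189, 0.199, 0.153 and 0.290 RPM in fasted mutants and 0.476, 349, 214 and 212 RPM in fasted controls. It was at 0 to 0.101 RPM in fed mutants and 0.103 to 0.324 RPM in fed controls. Replicate 1 of the fasted controls thus lay near the 12 libraries of the other groups, and the other 3 fasted control libraries were high. *Ccp84Af*, *TwdlB* and *TwdlC* were called with interactions of -4.58, -5.07 and -4.68. The call of *TwdlB* was lost in 17 of 28 alternatives. Cuticle genes called below 0 numbered 47 without fasted controls replicate 1 and 19 without fasted controls replicate 4.

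Replicate 1 was also the lowest of the fasted controls for other genes below 0. *ple*, the tyrosine hydroxylase needed to harden cuticle, had 15.7, 68.6, 115 and 85.1 RPM in fasted controls, against 10.7 to 18.1 RPM in fasted mutants, and *CG33110* had 12.1, 83.7, 106 and 92.2 RPM against 9.39 to 18 RPM. Both calls (adjusted p = 0.0453 and 0.0381) were lost in most of the alternatives, 20 and 16 of them. *CG9265* had 96.6, 284, 348 and 271 RPM in fasted controls and 59.5 to 64.8 RPM in fasted mutants. *Eip74EF*, an early gene of the moulting hormone ecdysone, had 5.13, 20, 29.5 and 19.0 RPM in fasted controls and 2.95 to 4.63 RPM in fasted mutants, and 3.05 to 5.06 RPM in fed mutants and 1.48 to 2.38 RPM in fed controls. Ecdysone response genes were called below 0 in 9 of 13, with 6 to 11 when 1 library was left out. The testis level was highest in the same fasted control library, at 2.88.

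Testis genes themselves were called in 3 of 27 (11.1%, against 31.9% of all genes), all below 0 and larger in fed larvae. *betaTub85D*, the testis tubulin, had 29.0 to 46.6 RPM in fasted mutants and 6.68 to 26.9 RPM in fasted controls, and 32.0 to 56.8 RPM in fed mutants and 0.845 to 6.54 RPM in fed controls. Its call was lost in 14 of 29 alternatives. Without fasted controls replicate 3, the library with the lowest testis level among them, 8 testis genes were called below 0. Without fed controls replicate 4 and fasted controls replicate 1 together, 1 was called above and 1 below 0. With the testis covariate, which is the mean of these same genes, 4 were called above and 5 below 0. Of 6 ecdysone synthesis genes *sro*, *shd* and *spok* were called below 0 and larger in fed larvae. *phm* went the other way, called above 0 (0.51) and larger in fasted larvae. The call of *spok* was lost in 11 of 29 alternatives, and with the testis covariate 2 genes of the list were larger in fed larvae. *shd*, which makes the active hormone, averaged 73.9 and 78.0 RPM in fasted mutants and controls and 71.5 and 42.1 RPM in fed mutants and controls.

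Among lists near or under the background of 31.9% were glycolysis (2 of 12 called), trehalose, glycogen and gluconeogenesis (2 of 9), beta-oxidation (4 of 18), neurons (1 of 11) and digestive proteases and carbohydrases (5 of 35). *tobi*, an alpha-glucosidase gene regulated by insulin and glucagon-like signals, was called among sugar sensing genes, with 248 and 361 RPM in fasted mutants and controls and 119 and 53.9 RPM in fed mutants and controls. *LpR1*, a lipoprotein receptor gene, averaged 80.2 and 122 RPM in the fasted groups and 47.0 and 43.1 RPM in the fed groups, mutants first, and was larger in fasted larvae (-0.73). *mnd*, an amino acid transporter gene, averaged 15.6 and 13.5 RPM and 25 and 49.0 RPM in the same order and was larger in fed larvae. The serine synthesis genes *CG11899* and *CG6287* were lower in fed mutants, by 1.75 and 0.70 on the log2 scale, and *CG6287* was higher in fasted mutants, with interactions of 1.23 and 1.09.

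When single libraries were left out, the class of genes below 0 and larger in fed larvae varied most. Its 492 genes became 802 without fasted controls replicate 3 and 322 without fed mutants replicate 4, and 280 without fasted controls replicate 1 and fed controls replicate 4 together. The totals of 1903 and 1435 interaction calls were 1639 to 1958 and 1130 to 1724 over the 16 fits that left out 1 library.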

How the data were processed

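Poly(A) RNA of whole larvae was sequenced in 16 libraries. According to the study's methods the authors trimmed reads with Trimmomatic, mapped them with TopHat 2.1.0 to the FlyBase release 6 genome, counted them strand-specifically on exons with HTSeq and removed genes with low counts. The library protocol names no step that marks strand, so overlapping genes are uncertain on either strand. The authors deposited normalised signal values per library, whole multiples of 1 read for 100% of values within 1e-06. They were taken as RPM and gave 16482553 to 20601418 recovered reads per library. Columns of the authors' fold changes and p-values were not used.

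Values were log2-transformed with a pseudocount of 1 and fitted with limma 3.58.1 in R 4.3.3 as 4 group means over 16 libraries with Benjamini-Hochberg adjustment. Genes in the text had to be called and lie above the median level (the 5 largest interactions in each class placed on a diet, the 3 largest in the others), or be among the 4 largest called members of 1 of 41 gene lists. *Erk7*, *sug* and *nclb* were added. Outside this rule, *Tor*, *Tsc1*, *S6k*, *mdy*, *Lpin* and *CG3812* were named for the calls of the other sign in their lists, and *RpL32* for its low level. Others are said to be chosen by their values. The members and lists were chosen with earlier results of these data known. Positions come from a release 6 annotation (BDGP6.54), which held 10305 of the genes. The fit was tested on simulated data. Alternatives used edgeR 4.0.16, DESeq2 1.42.0 and limma-voom on recovered reads. Replicates of a group differed by more than sampling noise (chi-square per degree of freedom 12.2 to 51.1 in 24 pairs).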

Additional observations from a re-analysis of the deposited data

Results flagged for a closer look

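The interaction tests whether the effect of fasting differs between genotypes, and all of its calls are differences of that kind: 1903 genes above 0 and 1435 below 0. In 127 genes the fasting responses were called in both genotypes with opposite signs.

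Within groups of 4 libraries, 6 of 116 groups over 29 named genes held a library whose gap to the nearest of the others exceeded Dixon's critical share of the group's range on the log2 scale, and chance alone flags about 1 in 20. Lsp1gamma was low in fasted mutants replicate 3 (0.977 of the range, 8842 RPM against 12845 to 12961 RPM). CG33110 was low in fasted controls replicate 1 (0.889, 12.1 RPM against 83.7 to 106 RPM), the library that also stood apart for cuticle genes. CG18179 was low in fed controls replicate 4 (0.838, 24.6 RPM against 186 to 274 RPM). Cyp4d8 was low in fasted controls replicate 4 (0.877, 55.7 RPM against 81.9 to 86.4 RPM). Ilp6 was high in fed mutants replicate 4 (0.847, 14.8 RPM against 8.74 to 9.49 RPM), and Erk7 was low in fasted mutants replicate 3 (0.872, 5.14 RPM against 7.59 to 8.03 RPM).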

How the results depend on the processing

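None of 160 named genes reversed in the 28 or 29 alternatives each was tested in, and 107 lost no call in any of them. Erk7 is among the 107 but had no call to lose. Its adjusted p in limma was 0.0216 to 0.217 when 1 library was left out, so it was called in some of these fits. The larger-diet classes depended most on the settings. With the testis level as a covariate 35 and 51 genes above and below 0 were larger in fasted larvae, 426 and 126 in fed larvae, and 1472 and 1329 in neither. That drop is partly built in, since the testis level differed by genotype. At an adjusted p under 0.01 the interaction was called for 1264 genes above and 614 below 0; 92 and 108 were larger in fasted larvae, 648 and 144 in fed larvae, and 362 below 0 in neither, with responses smaller in mutants for 1443 and larger for 166. Requiring a size above 0.5 left 1179 above 0, 147 of them larger in fasted larvae, 366 above and 323 below 0 in neither, and 1550 smaller responses. Calls within each diet placed 397 genes above 0 in fasted larvae, and calls within each genotype gave 1300 smaller responses. Genes below 0 and larger in fed larvae numbered 293 without genes under percentile 25 of level, 767 by DESeq2, and 280 without fed controls replicate 4 and fasted controls replicate 1 together, a setting chosen after seeing the data. Leaving out 1 library at a time gave 322 to 802 for these, 818 to 1031 above 0 and larger in fed larvae, 190 to 322 and 267 to 567 above and below 0 and larger in fasted larvae, 614 to 718 and 499 to 581 in neither, and 2069 to 2640 smaller and 282 to 386 larger responses. edgeR called 1955 genes above and 1653 below 0.

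The replicate block gave 1876 calls above and 1365 below 0. Samples of the same number were not paired by the labels, and in 6 of 24 pairs of same-numbered samples the deviations from group means correlated by more than 0.1 (-0.32 to 0.29 over all pairs), so the numbers were not used as pairs. Values near 0 RPM rest on few reads, since 1 read was worth 0.0472 to 0.0642 RPM.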
